A study of Rattus norvegicus with 23 samples.

Results

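Gapdh, Ldha and Vegfa were followed in rat hippocampal neural stem cells during the first 36 h of differentiation on soft and on stiff substrates. They were taken as 3 of the 32883 gene identifiers counted, by a list that names ENSRNOG00000018630 as Gapdh, ENSRNOG00000013009 as Ldha and ENSRNOG00000019598 as Vegfa. All 3 met the requirement of at least 10 counts in at least 2 libraries, and each had at least 10 counts in all 23 libraries. The deposited table holds identifiers without names, so the pairing of identifier and symbol was taken as given and could not be checked here. The cells were wild-type neural stem cells from the hippocampus of adult female rats. Every group was labelled with mixed differentiation medium, a DMEM-F12 and N2 base with retinoic acid at 1 uM and 1% FBS, including the groups labelled 0 h. The groups were soft and stiff substrates at 0, 12, 24 and 36 h, with 3 libraries in each except soft at 12 h, which had 2. The libraries of a group are numbered by a round (Rd1 to Rd3), and soft at 12 h has rounds 1 and 3. No label says whether a round is a culture or an animal of its own. The p-values therefore measure the spread between libraries alone, which may be technical. Neither substrate stiffness in units of pressure nor oxygen level is given in the sources used here.

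Glycolysis splits glucose to pyruvate in the cytosol. Gapdh encodes glyceraldehyde-3-phosphate dehydrogenase, the enzyme that oxidises glyceraldehyde-3-phosphate and yields NADH, and its transcript is often used as a reference in expression assays. Ldha encodes the lactate dehydrogenase A subunit, which turns pyruvate to lactate and regenerates NAD+. Vegfa encodes vascular endothelial growth factor A, a secreted ligand that acts on endothelial cells and on neural progenitors. Under low oxygen the hypoxia-inducible factors bind hypoxia response elements with a short core and raise transcription of glycolytic genes, Ldha among them, and of Vegfa. Neural stem cells are known for high glycolysis, which declines as they become neurons.

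The promoter windows of the 3 genes are shown because this core links the glycolytic members to Vegfa in textbook accounts of hypoxia. Each window is 300 bases around an annotated start, from RefSeq on build GRCr8, printed on the gene's own strand. The windows lie at chr4:159652418-159652717 on the minus strand for Gapdh, chr1:106507842-106508141 on the plus strand for Ldha and chr9:22452604-22452903 on the plus strand for Vegfa. Capitals mark each match to ACGTG or GCGTG on either strand, where a match on the opposite strand reads CACGT or CACGC.
Gapdh: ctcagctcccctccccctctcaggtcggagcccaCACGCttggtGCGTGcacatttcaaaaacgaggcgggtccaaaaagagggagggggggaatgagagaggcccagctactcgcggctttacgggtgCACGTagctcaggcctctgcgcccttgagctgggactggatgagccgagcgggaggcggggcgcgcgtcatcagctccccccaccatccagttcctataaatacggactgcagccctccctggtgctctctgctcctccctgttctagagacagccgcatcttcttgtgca
Ldha: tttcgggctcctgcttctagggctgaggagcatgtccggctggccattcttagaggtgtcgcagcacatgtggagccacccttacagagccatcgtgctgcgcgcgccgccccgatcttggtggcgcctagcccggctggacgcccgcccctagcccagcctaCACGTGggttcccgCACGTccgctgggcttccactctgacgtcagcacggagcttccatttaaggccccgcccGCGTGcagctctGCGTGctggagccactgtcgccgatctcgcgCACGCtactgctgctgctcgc
Vegfa: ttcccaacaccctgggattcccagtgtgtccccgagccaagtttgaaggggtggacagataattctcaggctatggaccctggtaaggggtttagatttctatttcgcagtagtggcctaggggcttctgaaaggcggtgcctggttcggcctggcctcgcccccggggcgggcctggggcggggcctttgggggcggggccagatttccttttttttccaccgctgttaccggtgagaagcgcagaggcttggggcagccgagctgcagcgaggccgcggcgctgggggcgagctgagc

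The Gapdh window held 1 match to ACGTG, which began 121 bases before the start, and 2 to GCGTG. The Ldha window held 3 matches to ACGTG, of which 2 overlap within 1 CACGTG that begins 87 bases before the start, and 3 to GCGTG. The first Vegfa window held 0 matches to either form, as did a second RefSeq window for Vegfa, which is not printed. Sequence outside the windows was not searched for any of the genes. The windows therefore cannot show whether Vegfa has a core farther from its annotated starts. Among 33469 windows of the same length, 19.3% held ACGTG, 29.7% held GCGTG, 41.6% held either and 6.42% held CACGTG. At least 3 matches to ACGTG were found in 1.69% of windows. These matches are letters in a window and not measured binding sites.

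**Figure D1:**
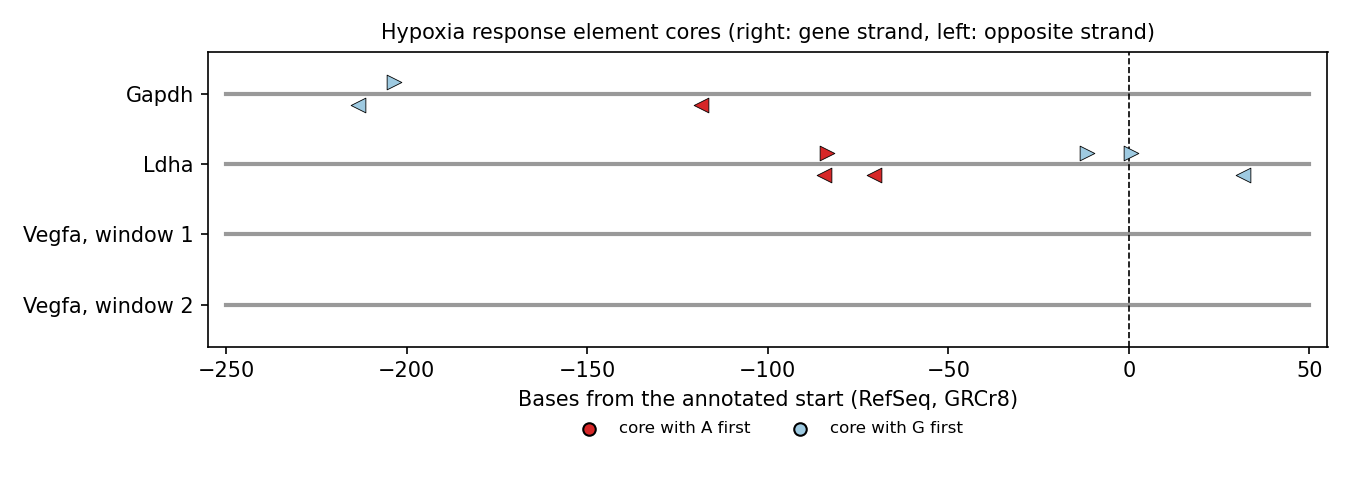
Position of hypoxia response element cores, in bases from the annotated RefSeq start (dashed line), in the promoter windows of the 3 genes. Triangles pointing right are on the gene's strand and those pointing left on the opposite strand; Gapdh has 3 matches, Ldha 6 and both Vegfa windows 0.

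Library totals ran from 2462360 to 6811157 counts. At 12 h the totals of the groups did not overlap, at 5428086 and 6519349 on soft and 2462360 to 4803755 on stiff. After a filter on low counts 11857 genes were tested, all 3 members among them. Levels are given in CPM, a gene's count scaled by its library's total and scaling factor, and a gene is called where its adjusted p over the 11857 genes is under 0.05. Counts are tags from the 3' end of transcripts and are not divided by gene length, so levels are compared between groups for 1 gene and not between genes. None of the 32883 identifiers matched a symbol in the reference table used here. The labelled cell type could therefore not be checked against markers, and 50 further glycolysis, hypoxia and VEGF pathway genes were not analysed.

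Gapdh fell on both substrates, and the fall came after 12 h. On soft the 0 h libraries held 342, 338 and 360.3 CPM, those of 12 h 345 and 363 CPM, those of 24 h 258, 303 and 279.7 CPM and those of 36 h 207, 231 and 229 CPM. On stiff the 0 h libraries held 324, 307 and 329 CPM, those of 12 h 339, 331 and 318 CPM, those of 24 h 289, 312 and 262 CPM and those of 36 h 185, 212 and 209.7 CPM. All 6 libraries at 36 h lay below all others, and on each substrate the 0 h and 12 h ranges overlapped. The share of all tested genes whose 36 h libraries were apart in this way was not counted. From 0 h to 36 h Gapdh became 1.56-fold lower on soft (log2 fold change -0.64 with SE 0.08, and Benjamini-Hochberg adjusted p = 6.17e-08 by the quasi-likelihood test of edgeR) and 1.58-fold lower on stiff (log2 fold change -0.66, SE 0.08, adjusted p = 2.75e-08). Of all tested genes, 26.2% fell over this interval on soft and 28.3% on stiff. As these are bulk samples, fewer cells with the transcript and less transcript per cell cannot be told apart. Gapdh and Ldha have processed pseudogenes as near-identical copies, and reads from these may have been split or lost in counting, so the absolute levels of both are uncertain.

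Neighbouring steps share the libraries of the time between them, so their values are given side by side and not as separate evidence. By step, Gapdh did not pass the test from 0 h to 12 h on soft (log2 fold change 0.03, 95% interval -0.15 to 0.21) or on stiff (0.04, -0.12 to 0.21). From 12 h to 24 h it fell on soft by 0.34 on the log2 scale (SE 0.09, adjusted p = 0.0033), a step in which 19.1% of tested genes fell. On stiff the same step gave -0.20 (95% interval -0.36 to -0.03, adjusted p = 0.0673) and was not called. From 24 h to 36 h it fell by 0.33 on soft (SE 0.08, adjusted p = 0.0076) and by 0.51 on stiff (SE 0.08, adjusted p = 7.26e-05), where 4.33% and 5.29% of tested genes fell. Single libraries decided some of these calls. On soft the step from 12 h to 24 h had an adjusted p of 0.0731 without soft 12 h replicate 3, and that from 24 h to 36 h one of 0.0645 without soft 24 h replicate 2 and 0.0636 without soft 36 h replicate 1, all by the edgeR test. The 12 h to 24 h step on stiff was called without stiff 24 h replicate 2 (edgeR adjusted p = 0.0321), with the replicate block (-0.20, adjusted p = 0.0375) and after thinning to the smallest total (-0.24, adjusted p = 0.0416).

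Ldha stayed within a narrow band and ended slightly higher. On soft the 0 h libraries held 369, 349 and 318 CPM, those of 12 h 375 and 307 CPM, those of 24 h 369, 348 and 338 CPM and those of 36 h 412, 358 and 371 CPM. On stiff the 0 h libraries held 363, 326 and 319.7 CPM, those of 12 h 343, 342 and 314 CPM, those of 24 h 363, 356 and 326 CPM and those of 36 h 399.6, 361 and 422 CPM. The ranges of neighbouring times overlapped on both substrates, and the highest group mean was 1.18 times the lowest. No step between neighbouring times was called on either substrate. In these steps 29.1%, 38.1% and 9% of tested genes were called in order of time on soft, and 21.5%, 30.6% and 9.89% on stiff. From 0 h to 36 h Ldha rose on stiff by a log2 fold change of 0.23 (SE 0.09, edgeR adjusted p = 0.025), in a comparison where 29.2% of tested genes rose. On soft the change was 0.14 (95% interval -0.04 to 0.31, adjusted p = 0.190). Averaged over substrates, a comparison added after the data were examined, it rose by 0.18 (SE 0.06, adjusted p = 0.0099), where 34.2% of tested genes rose. The same average fell for Gapdh (-0.65, edgeR adjusted p = 1.17e-11) and for Vegfa (-0.64, edgeR adjusted p = 0.00044). This comparison called 7967 of the 11857 tested genes in either direction.

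The rise of Ldha was small enough for single libraries to decide the call. On stiff the adjusted p was 0.0791 and 0.0955 without stiff 0 h replicate 2 or 3, and 0.0617 and 0.120 without stiff 36 h replicate 1 or 3. The averaged rise had an adjusted p of 0.0628 without soft 0 h replicate 3. Ldha also went with the round: it lay above its group mean in 8 of 8 libraries of round 1, by 0.08 on the log2 scale on average, and below it in 7 of 8 of round 3. Of all tested genes, 2.75% were above their group mean in all 8 libraries of round 1. Rounds 1 and 3 are in every group, and the part of the round in these values was not tested beyond the blocked fit given with the alternatives.

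Vegfa showed the largest changes of the 3, with a fall in the first 12 h on both substrates. On soft the 0 h libraries held 21.4, 21.8 and 17.6 CPM, those of 12 h 8.50 and 10.7 CPM, those of 24 h 9.77, 12.8 and 7.21 CPM and those of 36 h 16.2, 14.5 and 21.5 CPM. On stiff the 0 h libraries held 26.8, 22.3 and 19.1 CPM, those of 12 h 10.5, 7.04 and 13.2 CPM, those of 24 h 9.86, 9.95 and 9.47 CPM and those of 36 h 13.5, 11.8 and 8.21 CPM. All 6 libraries at 0 h lay above all libraries at 12 h and 24 h. Small groups can be apart without a difference, and the share of all tested genes apart in this way was not counted. From 0 h to 12 h Vegfa became 2.11-fold lower on soft (log2 fold change -1.07, SE 0.25, edgeR adjusted p = 0.0011) and 2.19-fold lower on stiff (log2 fold change -1.13, SE 0.23, adjusted p = 0.00033). In these comparisons 13.9% of tested genes fell on soft and 9.75% on stiff. Both calls held with each library left out in turn, with adjusted p of at most 0.0283 on soft and 0.0040 on stiff. Since totals differed between substrates at 12 h, every library was also thinned at random to the smallest total. This gave log2 fold changes of -1.29 on soft and -0.94 on stiff, both called. The draw was not repeated, so its noise is part of these values.

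From 12 h to 24 h no change in Vegfa was called, with log2 fold changes of 0.07 on soft (95% interval -0.45 to 0.59) and -0.09 on stiff (-0.59 to 0.41). From 24 h to 36 h Vegfa rose on soft by 1.67-fold (log2 fold change 0.74, SE 0.23, edgeR adjusted p = 0.0325). In this comparison 4.66% of tested genes rose. On stiff the step was 0.21 (95% interval -0.26 to 0.68, adjusted p = 0.661), and the libraries at 36 h reached from below those at 24 h to above them. The call on soft was lost without soft 24 h replicate 1 (adjusted p = 0.0887) or 3 (0.149), without soft 36 h replicate 1 (0.0672) or 3 (0.168), and in a fit of the compared groups alone (0.0731). Over the whole 36 h Vegfa ended 2.02-fold lower on stiff (log2 fold change -1.01, SE 0.22, edgeR adjusted p = 0.00015). Of all tested genes, 28.3% fell in that comparison. On soft the net change of Vegfa was -0.26 (95% interval -0.69 to 0.17, adjusted p = 0.314).

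**Figure D2:**
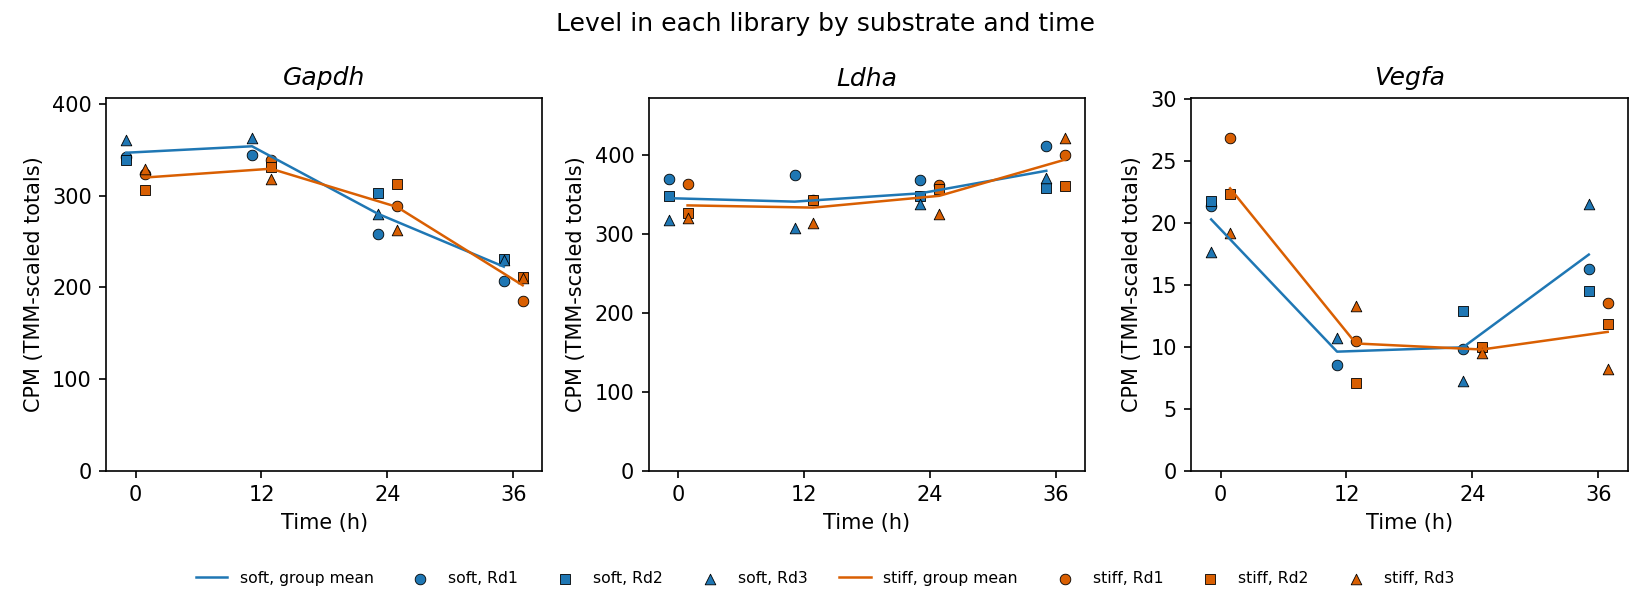
Level of each gene in CPM (y axis, from 0) against time in h (x axis), with 1 point per library, marker shape for the round, and lines through group means; soft and stiff points are set slightly apart. Gapdh falls after 12 h to 185 to 231 CPM at 36 h, Ldha stays between 307 and 422 CPM, and Vegfa drops from at least 17.6 CPM at 0 h to at most 13.2 CPM at 12 h.

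The study asked which genes depend on stiffness. None of the 3 genes was called between stiff and soft at 0, 12, 24 or 36 h. By the edgeR test the share of all tested genes called was 0% for 0 h and for 24 h, 6.6% for 12 h and 0.0675% for 36 h. DESeq2 also called no member at any time, and among the members only Vegfa at 36 h had an unadjusted p under 0.05. Over all genes, 431 had an unadjusted p under 0.05 in the 0 h comparison and 358 in the 24 h comparison, and DESeq2 called 0 in each. At 12 h, the time with the most calls, the log2 fold change of stiff over soft was -0.10 for Gapdh (95% interval -0.29 to 0.08), -0.03 for Ldha (-0.23 to 0.17) and 0.11 for Vegfa (-0.45 to 0.66). For Ldha the intervals at all 4 times lay between -0.23 and 0.23. After thinning of all libraries to the smallest total, the 3 genes were again not called there, and Vegfa moved to 0.53 (adjusted p = 0.402). Thinning leaves few counts of Vegfa in each library, and the random draw was not repeated.

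For Gapdh no difference between substrates was called. Its stiff libraries lay below all soft libraries at 0 h (307 to 329 against 338 to 360.3 CPM) and at 12 h (318 to 339 against 345 to 363 CPM), and the ranges overlapped at 24 h and 36 h. The unadjusted p of the edgeR test was 0.156 at 0 h and 0.263 at 12 h. Groups this small can be apart without a difference, and the share of all tested genes apart in this way was not counted. The log2 fold change was -0.12 at 0 h (95% interval -0.28 to 0.05, edgeR adjusted p = 1), 0.04 at 24 h (-0.13 to 0.20) and -0.14 at 36 h (-0.31 to 0.03). The intervals allow differences of up to 0.31 on the log2 scale.

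Vegfa at 36 h gave the largest difference between substrates among the 3. The soft libraries held 14.5 to 21.5 CPM (55, 94 and 57 counts) and the stiff libraries 8.21 to 13.5 CPM (54, 62 and 29 counts), with no overlap. Small groups can be apart without a difference, and the share of all tested genes with no overlap at 36 h was not counted. The level on stiff was 1.51-fold lower (log2 fold change -0.59, 95% interval -1.06 to -0.12, unadjusted p = 0.0149 by the edgeR quasi-likelihood test), and the adjusted p was 0.563. This difference fails the correction over all genes. Over the other settings and left-out libraries its log2 fold change kept its sign, and it went no nearer to 0 than -0.43, which was reached without stiff 36 h replicate 3 or soft 36 h replicate 3. At 0 h the difference was 0.16 (95% interval -0.24 to 0.57) and at 24 h it was -0.06 (-0.52 to 0.41).

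Whether a step differed between substrates was tested directly. For Vegfa, the change from 0 h to 36 h on stiff minus that on soft was -0.76 on the log2 scale (95% interval -1.38 to -0.14, unadjusted p = 0.0182, edgeR adjusted p = 0.765), in a comparison added after the data were examined, where 0.00843% of tested genes were called. For the step from 24 h to 36 h it was -0.54 (95% interval -1.19 to 0.12, adjusted p = 0.999), a comparison in which edgeR called 0% of tested genes and DESeq2 1 gene, and in which 439 were under 0.05 before adjustment. The call of Vegfa on 1 substrate only in these intervals is therefore not shown to be a difference between substrates. For Ldha from 0 h to 36 h the difference was 0.09 (95% interval -0.16 to 0.34), and for Gapdh from 12 h to 24 h it was 0.14 (-0.11 to 0.39). The difference of the step from 12 h to 24 h called 4.44% of tested genes and that of the step from 0 h to 12 h called 1.87%, with none of the 3 members among them. A joint test of a stiffness effect that changed after 0 h, which called 3.31% of tested genes, gave adjusted p = 0.789 for Gapdh, 0.966 for Ldha and 0.479 for Vegfa.

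**Figure D3:**
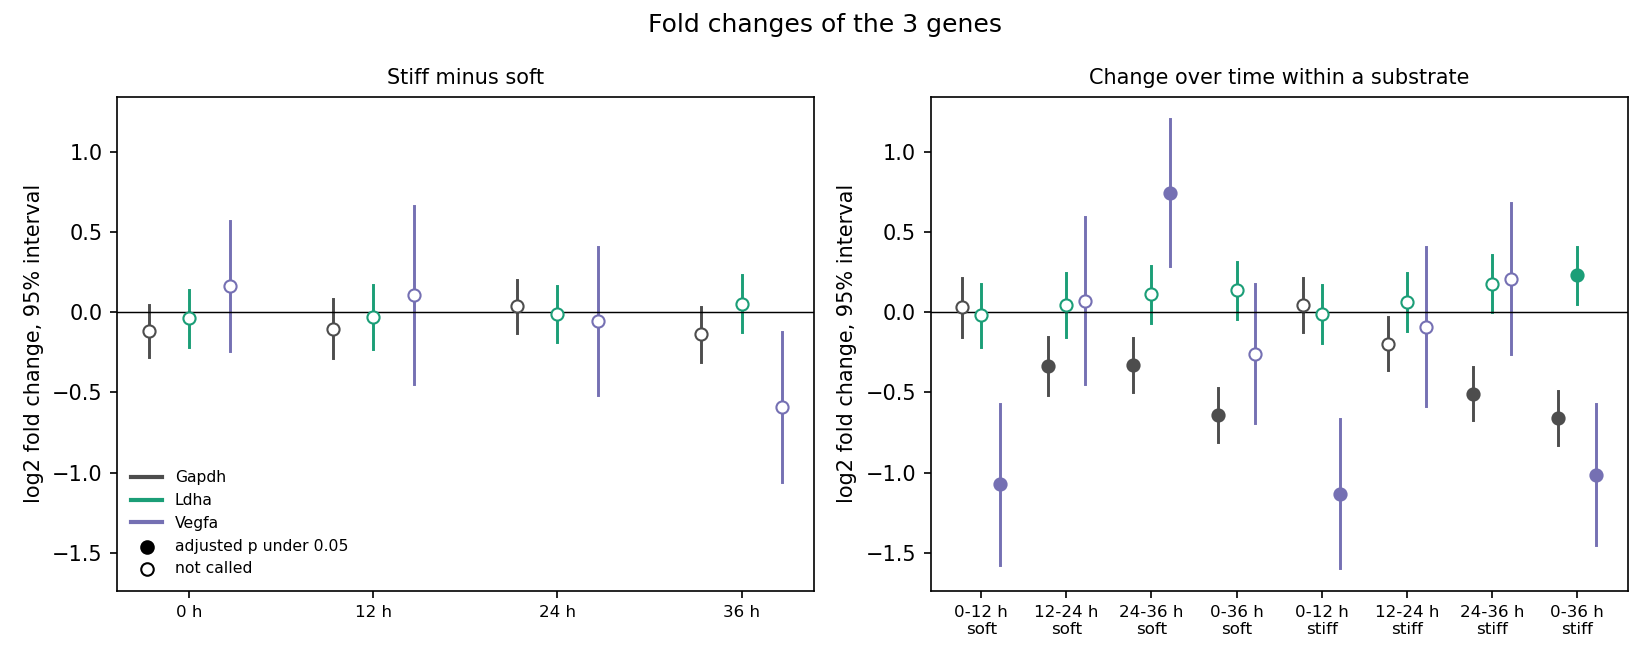
Log2 fold changes (y axis) with 95% intervals (lines) from the edgeR fit, for stiff minus soft at each time (left) and for changes over time on each substrate (right); filled points have an adjusted p under 0.05. On the left no point is filled and the interval of Vegfa at 36 h is the only one clear of 0; on the right the fall of Vegfa over the first 12 h and the later fall of Gapdh are filled on both substrates.

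In the order of the 8 group means, Gapdh ran from soft 12 h (354 ± 12.9 CPM, SD, n = 2) to stiff 36 h (202 ± 14.6 CPM, SD, n = 3). Ranges of neighbours in that order overlapped except between soft 24 h (258 to 303 CPM) and soft 36 h (223 ± 13.1 CPM, SD, n = 3). Ldha ran from stiff 36 h (394 ± 30.6 CPM, SD, n = 3) to stiff 12 h (333 ± 16.4 CPM, SD, n = 3), and no neighbours in its order were apart. Vegfa ran from stiff 0 h (22.8 ± 3.87 CPM, SD, n = 3) through soft 0 h (20.3 ± 2.28 CPM, SD, n = 3) and soft 36 h (17.4 ± 3.67 CPM, SD, n = 3) to the 5 other groups. Those 5 had means from 9.59 to 11.2 CPM with overlapping ranges. For Vegfa the highest group mean was 2.37 times the lowest, against 1.75 for Gapdh and 1.18 for Ldha.

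Ratios of 2 genes within a library do not depend on how libraries are scaled, and they are read here only for their change. Ldha counts per Gapdh count went on soft from a mean of 0.998 ± 0.103 at 0 h to 1.72 ± 0.235 at 36 h (SD, n = 3 each). The corresponding stiff means were 1.05 ± 0.0752 and 1.96 ± 0.228 (SD, n = 3 each). All 6 libraries of 36 h had a ratio of at least 1.55, above every library of the earlier times, where the highest was 1.43. Ldha and Gapdh thus moved apart over the course. The share of other gene pairs whose ratio is apart in this way was not counted.

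The change of Vegfa on soft depended on what it was set against. Per 100 Gapdh counts, Vegfa had 5.86 ± 0.840 counts at 0 h and 7.83 ± 1.56 at 36 h on soft (SD, n = 3 each), whereas in CPM its mean was lower at 36 h. Per 100 Ldha counts it went from 5.86 ± 0.355 to 4.60 ± 1.05 on soft (SD, n = 3 each). On stiff both ratios were lower at 36 h than at 0 h, at 5.60 ± 1.69 against 7.13 ± 1.24 per 100 Gapdh counts and 2.87 ± 0.800 against 6.74 ± 0.712 per 100 Ldha counts (SD, n = 3 each). The drop by 12 h appeared against both genes, to 2.70 ± 0.338 (SD, n = 2) and 3.13 ± 1.02 (SD, n = 3) per 100 Gapdh counts on soft and stiff. With Gapdh as the reference, the net direction of Vegfa on soft was thus the reverse of that in CPM, with overlapping libraries in both cases.

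**Figure D4:**
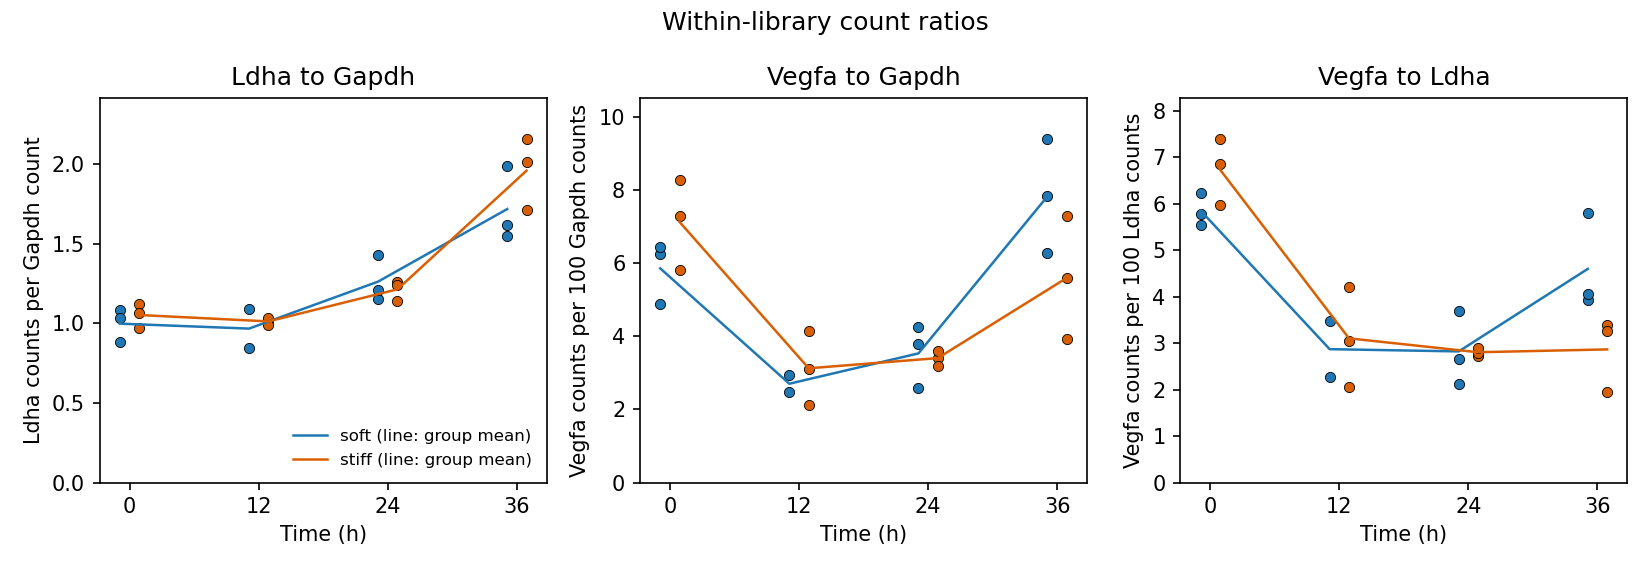
Count ratios within each library (y axis, from 0) against time in h (x axis), 1 point per library, with lines through group means for soft and stiff. Ldha per Gapdh is about level to 12 h and reaches 1.55 to 2.16 at 36 h, and Vegfa per 100 Gapdh counts ends above its 0 h mean on soft (7.83 against 5.86) and below it on stiff (5.60 against 7.13).

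Depth limits Vegfa most. Gapdh had 607 to 2311 counts per library and Ldha 827 to 2439, which gives counting errors of 2.08% to 4.06% and 2.02% to 3.48% of the value. Vegfa had 17 to 165 counts and counting errors of 7.78% to 24.3%. Its coefficient of variation within groups ran from 2.59% to 30.3%, against 3.15% to 8.66% for Gapdh and 4.48% to 14% for Ldha. The 2.59% belongs to stiff 24 h, where the mean counting error was 12.9%. The close agreement of those libraries is therefore no measure of their precision. The lowest Vegfa value, 7.04 CPM in stiff 12 h replicate 2, rests on 17 counts and has an exact Poisson 95% interval of 4.10 to 11.3 CPM, which covers counting error only.

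The 3 courses differed in shape. Over the 8 group means of log2 CPM, which come from the same libraries, Pearson's r was -0.95 between Ldha and Gapdh, 0.07 between Vegfa and Gapdh, and -0.02 between Vegfa and Ldha. The Ldha means ran only from 333 to 394 CPM, and neighbours in their order had overlapping ranges. Its r with Gapdh therefore rests on small differences between means. Among the other tested identifiers, the one most like Gapdh over the 8 group means was ENSRNOG00000002563 (Pearson's r 0.99), that most like Ldha was ENSRNOG00000053753 (0.98) and that most like Vegfa was ENSRNOG00000019316 (0.98). With Spearman's rho several identifiers tied at 1 for each gene, so that measure names no single nearest identifier.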

How the data were processed

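RNA was measured as 3' tags with the QuantSeq FWD kit, per the labels' protocols. Per the submitters' processing notes, tools included HISAT2 2.1.0, HTSeq and FastQC, with build rn6. How multiply mapped reads and strand were treated, and with which annotation, is not given in the sources used here. The authors deposited raw counts for each gene identifier, 1 column a library.

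Libraries were grouped by the substrate and time in their titles. Counts were fitted with edgeR 4.0.16 (R 4.3.3): quasi-likelihood F tests on 8 group means over all 23 libraries, TMM scaling, and filterByExpr with a minimum count of 10 and a minimum total of 15, which kept 11857 genes. P-values were adjusted over those genes by Benjamini-Hochberg and called under 0.05. Intervals are 95% intervals from the standard error implied by F. Scripts were tested on simulated counts. Replicates of every group differed by more than sampling noise (chi-square per degree of freedom 2.42 to 9.11).

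Named genes were the 3 members, pathway lists by symbol, and for each member the identifier with the highest Pearson's r over the group means (log2 CPM, prior count 2). The members and lists were chosen with earlier results of these data known. Alternatives were RLE, upper-quartile and unscaled totals, no filter, the test of DESeq2 1.42.0, a minimum of 5 CPM in 3 libraries, the round as a block, the compared groups alone, thinning, and each library left out. Comparisons over 0 to 36 h of the substrate average and of the difference between substrates were chosen after seeing the data. Figures were made in matplotlib 3.10.9.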

Additional observations from a re-analysis of the deposited data

How the results depend on the processing

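Of 933 values of the 54 member results under the alternatives, 867 kept their direction and side of the threshold, 13 lost a call and 3 gained one. The other 50 changed sign in results that were not called either way, and no called value changed sign. Values are log2 fold changes, and the cause of these changes was not tested. With unscaled totals, Ldha was 0.0110 for stiff minus soft at 12 h and -0.0314 for the substrate difference of the step 12 to 24 h, and Gapdh was -0.0293 from 0 to 12 h on soft. With no filter the substrate difference of the step 0 to 12 h was -0.00127 for Gapdh and -0.00645 for Ldha. In the compared groups alone, Ldha was 0.00187 for stiff minus soft at 12 h and -0.00713 for the difference of the step 12 to 24 h, and Vegfa lost its rise from 24 to 36 h on soft (0.74, adjusted p = 0.0731). Thinned, Ldha was 0.0105 for stiff minus soft at 24 h, the difference of the step 0 to 12 h was -0.0156 for Gapdh and 0.35 for Vegfa, and Gapdh gained a call from 12 to 24 h on stiff (-0.24).

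The round numbers were not shown to pair the libraries, since correlations of same-numbered deviations ran from -0.05 to 0.15 and in no comparison were all above 0.1. This does not show that a round shares nothing. Of all tested genes, 2.75% lay above their group mean in all 8 libraries of round 1, and a shared effect was not tested beyond the block. With the replicate block, Gapdh was called from 12 to 24 h on stiff (-0.20, adjusted p = 0.0375), its difference of the step 0 to 12 h was -0.00354, and no other member result changed.

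With each library left out in turn, Gapdh ran from -0.0249 to 0.0646 (0 to 12 h), -0.40 to -0.25 (12 to 24 h) and -0.39 to -0.27 (24 to 36 h) on soft, -0.25 to -0.12 (12 to 24 h) on stiff, -0.0285 to 0.10 for stiff minus soft at 24 h, and -0.0243 to 0.0572 and -0.0693 to 0.0367 for the differences of the steps 0 to 12 and 0 to 36 h. Ldha ran from -0.17 to 0.10 (0 to 12 h) and -0.0696 to 0.20 (12 to 24 h) on soft, -0.0509 to 0.0453 (0 to 12 h) and 0.18 to 0.29 (0 to 36 h) on stiff, and 0.14 to 0.21 for the average from 0 to 36 h. For stiff minus soft it ran from -0.0991 to 0.0116 at 0 h, -0.17 to 0.12 at 12 h and -0.0436 to 0.0363 at 24 h, and for the differences of the steps 0 to 12 and 12 to 24 h from -0.12 to 0.16 and -0.13 to 0.15. Vegfa ran from -0.18 to 0.28 (12 to 24 h) and 0.57 to 0.99 (24 to 36 h) on soft, -0.25 to 0.0992 (12 to 24 h) on stiff, -0.0833 to 0.29 and -0.23 to 0.19 for stiff minus soft at 12 and 24 h, and -0.25 to 0.13 and -0.35 to 0.0855 for the differences of the steps 0 to 12 and 12 to 24 h. Where 1 soft 12 h library remained, it was assumed to vary like the other groups.

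Counts of called genes over all genes moved by over 1.5 times in some settings. With no filter they went from 0 to 12 at 0 h, from 0 to 8 at 24 h, from 8 to 97 at 36 h and from 393 to 674 in the joint test, and for the substrate difference of the steps 24 to 36 and 0 to 36 h from 0 to 14 and from 1 to 23. At 36 h the count was 48 with the block, 47 with DESeq2 and 28 in the compared groups alone. The differences of the steps 24 to 36 and 0 to 36 h called at most 2 genes in the remaining settings. Leaving out 1 library gave 336 to 672 at 12 h, where the full fit called 782, and 1 to 13 at 36 h, 160 to 433 in the joint test (393), 87 to 278 (222) and 279 to 596 (526) for the differences of the steps 0 to 12 and 12 to 24 h, 2150 to 3303 (3455) from 0 to 12 h on soft, and 667 to 934 (1067) and 540 to 1020 (1173) from 24 to 36 h on soft and stiff. Vegfa, with 17 to 165 counts per library, is the member that depth limits most.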
